A study of Sus scrofa with 50 samples.

Results

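ET-type and L-type Korean minipigs (Sus scrofa) were compared by the RNA of their tenderloin muscle. The libraries that the labels name tenderloin were taken, 10 of the 50 libraries of the series, with 1 library per animal. The ET libraries came from S0235, S0242, S0276, S0309 and finally S0326, and the L libraries came from S0349, S0355, S0377, S0384 and finally S0385. The labels do not say what the letters ET and L stand for. No genotype, treatment, age or sex stands in the labels, so anything that went with the type, such as housing or date of sampling, cannot be told apart from it. Whole-tissue RNA was extracted with TRIzol, and mRNA libraries that keep the strand were sequenced. Values are TPM, a level per transcript length scaled to the same total in each library. They were summed over assembled transcripts with the same closest Swiss-Prot protein, here called a gene. Where a value is given for each library, the order is that of the animals above, and ± stands for the SD (n = 5 animals of each type). Fold changes are on the log2(TPM + 1) scale, which understates the change of low genes, and are given with their SE and a Benjamini-Hochberg adjusted p from limma over all genes tested.

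The tenderloin is the psoas muscle along the lumbar spine, a postural muscle built from slow oxidative and fast fibres. Slow fibres use the myosin heavy chain MYH7 with light chains of the slow type, and fast fibres use MYH1, MYH2 or MYH4 with MYL1. The fibres lie in a collagen matrix made largely by fibroblasts, in which small leucine-rich proteoglycans such as decorin bind collagen fibrils and growth factors. TGF-beta family ligands, stored in that matrix, act through SMAD proteins, and the ID proteins are targets of the BMP branch that hold back differentiation factors such as MYOD.

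All 10 libraries held the transcripts of skeletal muscle. The muscle creatine kinase CKM was at 20418 to 34871 TPM in ET and 17458 to 24471 TPM in L, the skeletal actin ACTA1 at 16242 to 26337 TPM in ET and 11342 to 18692 TPM in L and the giant spring protein TTN at 213 to 364 TPM in ET and 106 to 257 TPM in L. Every library correlated best with the mean profile of the other tenderloin libraries (r of 0.965 to 0.987 across genes, against 0.948 to 0.970 with loin). Genes with a TPM of at least 1 numbered 10825 to 10915 in ET libraries and 10340 to 10627 in L libraries, a difference of 385.2. A two-sided exact permutation test gave p = 0.00794, the smallest p that 5 against 5 libraries allow, and an adjusted p of 0.0397 over 5 library summaries. With a limit of 5 TPM the difference was 348.6 genes and did not pass (exact permutation test, adjusted p = 0.0794). The share of the 10 most abundant genes was 22.3% to 31.5% in ET and 27.1% to 31.6% in L (adjusted p = 0.579). The difference was -1.08 percentage points, and 0.325 without S0235. Transcripts with no usable protein match took 7.97% to 11.09% of the TPM in ET and 7.05% to 8.68% in L (exact permutation test, adjusted p = 0.0926, and 0.0397 without S0242). Transcripts from L assemblies took 43.04% to 45.3% in ET and 44.2% to 48.6% in L (adjusted p = 0.0794, and 0.0397 without S0242). Read depth is unknown, because TPM keeps none.

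Of 10851 genes tested with limma, 152 rose and 25 fell in ET tenderloin at an adjusted p under 0.05. Called genes thus made up 1.63% of those tested, with 1.4% higher and 0.23% lower in ET. Counts of calls in gene lists below stand beside these shares. The lists were chosen with earlier results of these data known, so their counts are descriptions. The median log2 fold change of all genes was 0.05, and 2208 genes had an unadjusted p under 0.05. In 167 of the 177 called genes the 5 ET values and the 5 L values did not overlap. Over all genes tested, 3.85% had all ET values above all L values and 1.39% had all ET values below. All 177 kept their direction whichever library was left out, which follows largely from their selection by a small adjusted p in these same libraries. The calls themselves depended on single animals. With 1 library left out at a time, without S0377 (L) 5 genes were called higher and 0 lower, and without S0326 (ET) 20 and 2. Without S0355 the counts were 62 and 11, without S0242 72 and 13, without S0276 72 and 8, without S0309 90 and 10, without S0384 100 and 14, and without S0235 112 and 39. Without S0385, an L animal, they were 321 and 53. The 5 genes that passed without every library in turn were DCN, RAET1E, RET, SNAI2 and VOPP1, all higher in ET. SNAI2, a zinc finger repressor of the Snail family, and VOPP1 were picked out after their values were seen. With TPM rescaled by median-ratio size factors, 73 genes rose and 32 fell.

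**Figure D1:**
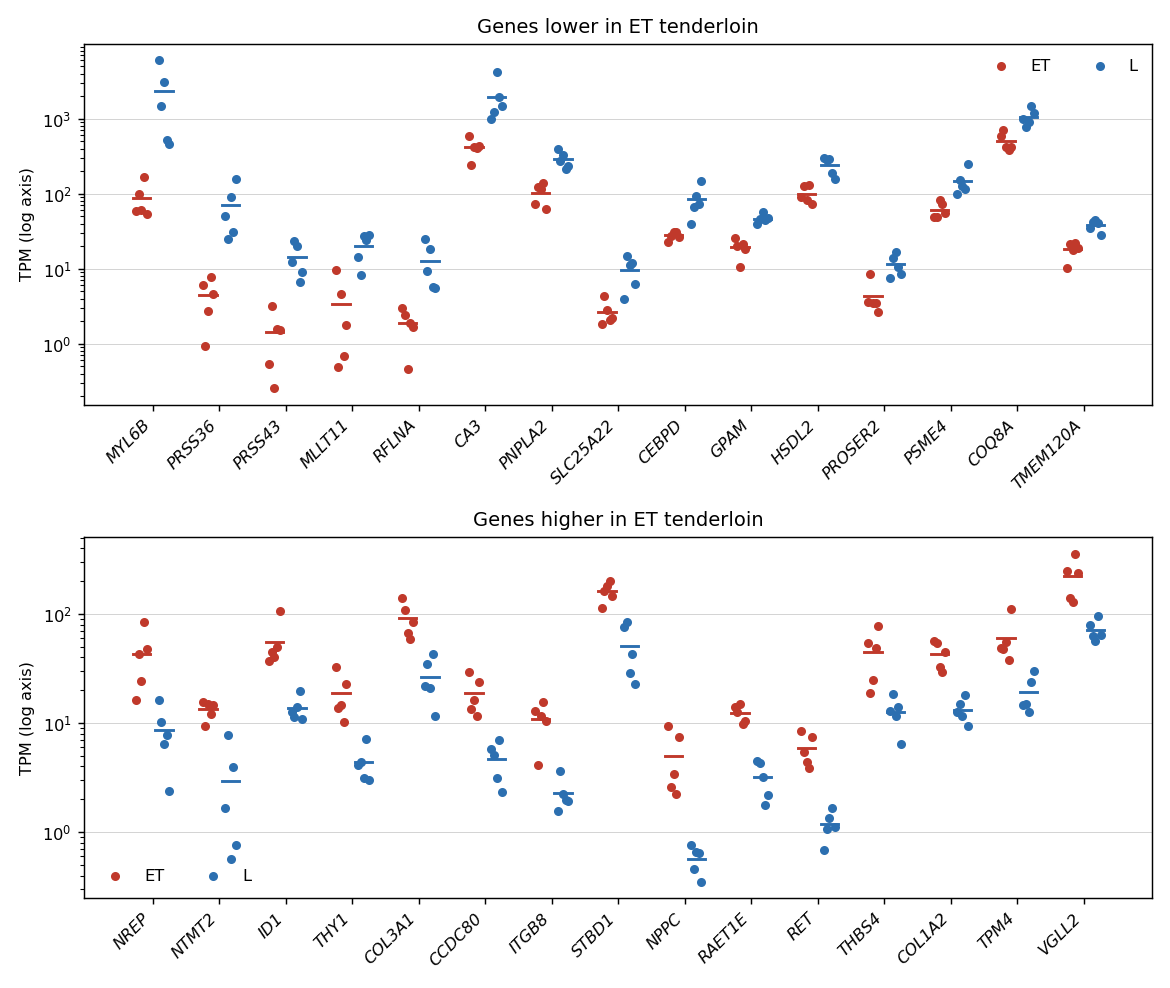
TPM on a log axis in each tenderloin library for the 15 called genes of largest fold change in each direction, with ET libraries (red) left of L libraries (blue), points for animals and bars for the mean of 5. MYL6B in the upper panel has 52.9 to 165 TPM in ET and 460.3 to 5984 TPM in L; in the lower panel VGLL2 has 129 to 358 TPM in ET and 57.0 to 95.5 TPM in L.

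The largest difference was in a myosin light chain. MYL6B, an essential light chain of slow muscle and non-muscle myosin, was at 58.4, 99.9, 61.2, 165 and 52.9 TPM in ET, against 5984, 1479, 3108, 527 and 460.3 TPM in L. No ET library reached the lowest L library, and the L libraries themselves spread over more than a 10-fold range. MYL6B fell in ET (log2 fold change -4.19, SE 0.64, adjusted p = 0.0157), with 0.0548 as the adjusted p without S0326 and 0.0577 without S0377. RefSeq places the gene in Sscrofa11.1 at chromosome 5, 21554351 to 21558995. A single assembled transcript of 1603 bases, from the ET tenderloin assembly, carried the whole value. As a description computed after the values were seen, MYL6B made up 0.837% to 2.34% of the TPM of the essential light chains MYL1, MYL3, MYL4 and MYL6B in ET and 10.5% to 62.9% in L. In the library of S0349 it was the most abundant of the 4.

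No other myosin light chain was called. MYL3, the essential light chain of slow fibres, was at 4736, 6887, 3756, 5554 and 4896 TPM in ET, against 3106, 5654, 4628, 2710.3 and 1864 TPM in L and did not pass (log2 fold change 0.60, SE 0.29, adjusted p = 0.270). The slow regulatory chain MYL2, at 14419.7 to 20069.7 TPM in ET and 19085 to 55895 TPM in L, had a log2 fold change of -0.81 (adjusted p = 0.148). The fast chain MYL1 was at 1346 to 1929 TPM in ET and 406 to 1792 TPM in L (log2 fold change 1.05, SE 0.39, adjusted p = 0.170), and its fast regulatory partner MYL11, also called MYLPF, at 7803 to 13251 TPM in ET and 3208 to 11240.1 TPM in L (adjusted p = 0.224). The non-muscle chain MYL6 was at 103 to 237 TPM in ET and 79.2 to 111 TPM in L (adjusted p = 0.114), and the atrial and embryonic chain MYL4 reached 7.78 TPM in S0242 and stayed at 0 to 2.36 TPM in the other libraries.

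Heavy chains and troponins were called in neither direction. MYH7 was at 4823, 5613, 2908, 3413 and 2624 TPM in ET, against 5889, 3413, 5558, 2567 and 2535 TPM in L, and the ranges of the groups overlapped almost fully (log2 fold change -0.01, adjusted p = 0.992). It made up 28.8% to 42.9% of the skeletal heavy chain TPM in ET and 20.97% to 66.6% in L (difference -12.3 percentage points; exact permutation test, adjusted p = 0.248, and 0.0198 without S0384). MYH1, the fast IIX chain, was at 3023 to 8082 TPM in ET and 1724 to 6715 TPM in L (log2 fold change 0.998, SE 0.39, adjusted p = 0.183). MYH2 was at 367 to 681 TPM in ET and 282 to 1627 TPM in L (log2 fold change -0.18), MYH4 at 63.2 to 116 TPM in ET and 47.5 to 584 TPM in L (-0.77), the embryonic chain MYH3 at 90.2 to 267 TPM in ET and 128 to 707 TPM in L (-0.52) and the neonatal chain MYH8 at 2.71 to 19.4 TPM in ET and 0.219 to 40.9 TPM in L (0.21). Heavy chain genes are near-identical in stretches, and reads can be divided wrongly between them. Among the troponins, the slow forms TNNC1, TNNI1 and TNNT1 had log2 fold changes of 0.05, -0.22 and -0.07, and the fast forms TNNC2, TNNI2 and TNNT3 had 0.87, 0.43 and 0.80, none of them called. Of 15 slow fibre contractile genes tested, 1 fell, MYL6B, and the median was -0.22. None of 16 fast fibre genes passed, at a median of 0.72, against 0.05 for all genes.

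**Figure D2:**
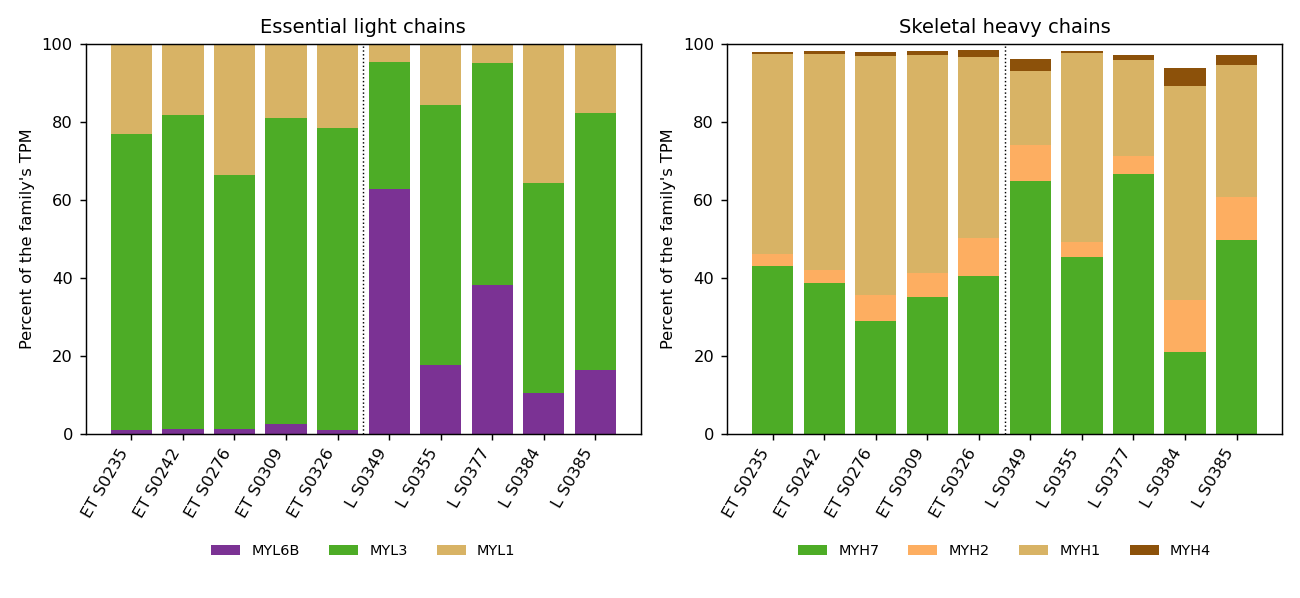
Percent of the TPM of the essential light chains (left) and of the skeletal heavy chains (right) taken by each gene in each tenderloin library, ET libraries left of the dotted line and L libraries right of it; MYL4, MYH3 and MYH8 are counted in the totals and not drawn. MYL6B takes at most 2.34% of the light chains in ET and at least 10.5% in L, while MYH7 ranges from 28.8% to 42.9% in ET and from 20.97% to 66.6% in L.

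PRSS36 and PRSS43 had the next largest decreases among called genes. PRSS36, a secreted protease with several protease domains, was at 6.09, 0.942, 2.72, 7.73 and 4.66 TPM in ET, against 50.1, 25.3, 91.9, 31.3 and 156 TPM in L. The groups were separated by more than 3-fold (log2 fold change -3.59, SE 0.51, adjusted p = 0.0129). Its 3 assembled transcripts all came from the L tenderloin assembly, and the first of them averaged 2.27 TPM in ET and 50.03 TPM in L. PRSS8, prostasin, a membrane-anchored protease of epithelia, was at 1.01, 0.225, 0.464, 0.562 and 0.338 TPM in ET, against 5.11, 1.25, 4.62, 2.31 and 8.22 TPM in L. PRSS8 fell as well (log2 fold change -1.66, SE 0.33, adjusted p = 0.0318). PRSS8 lies under the abundance limit for naming, and was picked out after its values were seen because RefSeq annotates it next to PRSS36, at chromosome 3, 17357793 to 17362223 in Sscrofa11.1 against chromosome 3, 17345015 to 17354688. PRSS43, a protease known from mouse testis, was at 0.533, 3.20, 0.254, 1.59 and 1.53 TPM in ET, against 12.2, 23.5, 20.2, 6.59 and 9.04 TPM in L. Again the groups did not overlap (log2 fold change -2.65, SE 0.38, adjusted p = 0.0129). Its transcript matched that entry at only 53.7% identity, so the name stands for the nearest described protein. Of these 3 calls, 0 held without S0377 (adjusted p 0.0509 to 0.0880) and 2 without S0242, S0276, S0309 or S0326. Of the same 3, 2 passed on the most abundant transcript alone. Here and below, that check leaves a gene with a single transcript, such as PRSS43 or PRSS8, at its own fold change. Only the adjusted p of such a gene can move, through the other genes tested.

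Among metabolic genes, CA3 and a few genes of fat and mitochondria fell. CA3, the cytosolic carbonic anhydrase of slow muscle, was at 587, 238, 422, 407 and 437 TPM in ET, against 984, 1212, 4170.4, 1959 and 1486 TPM in L. Every ET library was under every L library (log2 fold change -2.08, SE 0.36, adjusted p = 0.0205). The other 5 carbonic anhydrases tested, CA2, CA4, CA9, CA13 and CA14, had log2 fold changes of 0.08 to 0.59 and were not called. PNPLA2, the lipase that starts the breakdown of stored triglyceride, was at 73.5, 125, 116, 141 and 63.2 TPM in ET, against 398, 275, 331, 217 and 231 TPM in L. PNPLA2 fell (log2 fold change -1.51, SE 0.25, adjusted p = 0.0173). GPAM, which catalyses the first step of glycerolipid synthesis, was at 25.7, 20.4, 10.7, 21.7 and 18.2 TPM in ET, against 39.1, 45.6, 57.4, 44.5 and 47.2 TPM in L. GPAM fell (log2 fold change -1.27, SE 0.21, adjusted p = 0.0168), and neither gene had overlapping groups. PNPLA2 and GPAM were the only calls among 24 lipid storage genes tested (median -0.24), where 0.23% of all genes were called lower. The lipoprotein lipase gene LPL was at 56.2 ± 20.3 TPM in ET and 157 ± 90.8 TPM in L (adjusted p = 0.0630), with no overlap between the types and no call.

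ACADVL, the mitochondrial acyl-CoA dehydrogenase for very long chains, was at 231 ± 54.3 TPM in ET and 444 ± 71.5 TPM in L (log2 fold change -0.96, SE 0.19, adjusted p = 0.0339). It was the only one of 30 fatty acid oxidation genes to pass, at a median of -0.32 for the list. HSDL2, a peroxisomal dehydrogenase, averaged 101 TPM in ET and 244 TPM in L (log2 fold change -1.25, adjusted p = 0.0264), and COQ8A, a kinase-like protein of coenzyme Q synthesis, 506 TPM in ET and 1068 TPM in L (-1.08, adjusted p = 0.0387). SLC25A22, the mitochondrial glutamate carrier, averaged 2.65 TPM in ET and 9.69 TPM in L (-1.46, adjusted p = 0.0374) with overlapping groups. RefSeq places SLC25A22 at chromosome 2, 491288 to 498773 and PNPLA2 at chromosome 2, 513065 to 517962, close to each other in Sscrofa11.1. Here and for the other neighbouring genes named, how often called genes lie side by side was not tested. AIFM2, an oxidoreductase that protects membrane lipids with reduced coenzyme Q, averaged 9.01 TPM in ET and 20.02 TPM in L (-1.04, adjusted p = 0.0479). Of 48 nuclear genes of the respiratory chain and citric acid cycle none passed, and their median was -0.01 (1 called lower without S0385). Counting CA3, PNPLA2 and GPAM with the 5 genes of these sentences, no call held without S0326 or S0377 (adjusted p 0.0548 to 0.122 and 0.0509 to 0.113). Of the same 8 calls, 3 held without S0276, 4 without S0309 or S0355, 5 without S0349 or S0384, 6 without S0235 and 7 without S0242 or S0385. Only CA3 passed on its most abundant transcript alone, but it has a single transcript, so its fold change could not differ there.

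The remaining decreases that the rule names were of mixed function. MLLT11, a small protein known as a fusion partner in leukaemia, averaged 3.44 TPM in ET and 20.4 TPM in L (log2 fold change -2.56, SE 0.52, adjusted p = 0.0339), and RFLNA, a filamin-binding protein, 1.89 TPM in ET and 12.8 TPM in L (log2 fold change -2.11, SE 0.40, adjusted p = 0.0270). CEBPD, a transcription factor induced by glucocorticoids and inflammation, was at 23.1, 27.6, 31.2, 31.2 and 26.9 TPM in ET, against 39.2, 66.1, 92.8, 73.1 and 149 TPM in L. CEBPD fell without overlap (log2 fold change -1.43, SE 0.28, adjusted p = 0.0318). This was the only call among 21 glucocorticoid-induced and stress arrest genes tested (median -0.56). PSME4, a proteasome activator, averaged 61.7 TPM in ET and 149 TPM in L (-1.22), PROSER2 4.37 TPM in ET and 11.5 TPM in L (-1.25), TMEM120A 18.2 TPM in ET and 37.99 TPM in L (-1.05), RPL5, a protein of the large ribosomal subunit, 29.9 TPM in ET and 61.8 TPM in L (-1.03) and the small heat shock protein HSPB6 1138 TPM in ET and 2307 TPM in L (-0.97), with adjusted p of 0.0335 to 0.0479. Of these 8 calls, 0 held without S0326 or S0377 (adjusted p 0.0801 to 0.137 without S0377), 1 without S0309 or S0355, 2 without S0242, S0276 or S0384, 4 without S0235 and 7 without S0349. On the most abundant transcript alone none of the 8 passed (adjusted p 0.0570 to 0.0858). MLLT11, RFLNA and PROSER2 have a single transcript, so their fold changes stayed the same and only their adjusted p moved.

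Matrix genes were among those that rose. Of 9 small leucine-rich proteoglycans tested, 5 rose, against 1.4% of all genes. The list's median was 1.03, against 0.05 for all genes. DCN, decorin, was at 397, 296, 346, 348 and 477 TPM in ET, against 155, 137, 116, 128 and 133 TPM in L. Its lowest ET value, in S0242, stood well above its highest L value, in S0349, and DCN had the smallest adjusted p of all genes (log2 fold change 1.46, SE 0.16, adjusted p = 0.00798). LUM, lumican, was at 60.5, 66.8, 44.1, 37.4 and 76.9 TPM in ET, against 14.6, 16.9, 21.8, 22.6 and 25.1 TPM in L. LUM rose, with a wide gap between the types (log2 fold change 1.43, SE 0.22, adjusted p = 0.0157). OGN, osteoglycin, was at 10.4 ± 2.48 TPM in ET and 4.20 ± 0.693 TPM in L (1.12), ASPN, asporin, at 8.63 ± 2.23 TPM in ET and 3.70 ± 0.967 TPM in L (1.03) and FMOD, fibromodulin, at 6.93 ± 2.88 TPM in ET and 2.43 ± 0.628 TPM in L (1.17), with adjusted p of 0.0167, 0.0277 and 0.0316. None of the 5 had overlapping groups, as was so for 167 of the 177 called genes. The 4 members that were not called, BGN, PRELP, OMD and PODN, had log2 fold changes of 0.44 to 0.67 and overlapping groups. RefSeq places DCN and LUM side by side, at chromosome 5, 91678601 to 91713925 and at 91748871 to 91756381 in Sscrofa11.1, and likewise OGN, ASPN and the matrix gene ECM2, at chromosome 3, 42116521 to 42243746. Of these 5 calls, 1 held without S0377 (adjusted p 0.0404 to 0.0858), 2 without S0326, 3 without S0242 or S0355 and 4 without S0276, S0309 or S0384. On the most abundant transcript alone 3 of the 5 passed, and ASPN was at 0.74 (adjusted p = 0.518).

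Of 13 collagens tested in a list of fibrillar, fibril-associated and related types, 4 rose, against 1.4% of all genes. All 13 had a positive log2 fold change and the median was 0.80. COL3A1, type III collagen, was at 141, 109, 67.4, 59.7 and 85.4 TPM in ET, against 22.1, 34.97, 21.2, 42.7 and 11.5 TPM in L. COL3A1 rose (log2 fold change 1.82, SE 0.33, adjusted p = 0.0244). COL1A2, a chain of type I collagen, was at 56.7, 53.9, 32.4, 29.3 and 45.1 TPM in ET, against 12.7, 14.9, 11.7, 17.9 and 9.35 TPM in L, and rose too (log2 fold change 1.62, SE 0.22, adjusted p = 0.0126). In both genes S0235 and S0242 were the highest ET libraries, S0385 was the lowest L library and the groups did not overlap. The other type I chain, COL1A1, was at 40.7, 33.8, 17.9, 12.4 and 22.8 TPM in ET, against 10.3, 13.4, 13.8, 11.2 and 6.36 TPM in L. Its groups overlapped and it did not pass (log2 fold change 1.07, SE 0.30, adjusted p = 0.0917). COL5A2, which joins types I and III in fibrils, was at 13.1 ± 2.42 TPM in ET and 5.56 ± 1.34 TPM in L (1.11) and COL15A1, a collagen next to basement membranes, at 56.7 ± 5.37 TPM in ET and 23.1 ± 7.86 TPM in L (1.32). The type VI chains COL6A1, COL6A2 and COL6A3 had log2 fold changes of 0.48, 0.46 and 0.84, none of them called.

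Other matrix genes followed, with 4 of 32 higher and none lower (median 0.70), against 1.4% and 0.23% of all genes. PCOLCE, which speeds the cutting of procollagen, was at 48.8, 47.7, 25.7, 34.8 and 39.4 TPM in ET, against 11.9, 14.1, 13.1, 19.6 and 10.3 TPM in L. PCOLCE rose without overlap (log2 fold change 1.44, SE 0.21, adjusted p = 0.0130). CCDC80, a secreted matrix protein, was at 18.9 ± 7.48 TPM in ET and 4.66 ± 1.90 TPM in L (1.81), and ECM2 at 8.23 ± 1.07 TPM in ET and 3.61 ± 0.937 TPM in L (1.02). THBS4, a thrombospondin of tendon and muscle matrix, was at 53.8, 18.98, 24.8, 49.3 and 78.0 TPM in ET, against 13.04, 18.3, 11.6, 14.1 and 6.44 TPM in L. The ET library of S0242 lay just above the highest L library, S0355 (log2 fold change 1.64, SE 0.37, adjusted p = 0.0479). Basement membrane genes gave 1 call of 14, the laminin chain LAMA4 at 9.97 ± 2.40 TPM in ET and 4.42 ± 1.17 TPM in L (log2 fold change 1.02, SE 0.20, adjusted p = 0.0316), and a median of 0.38. Counting the collagens with these genes, the calls that held without 1 library were 0 of 9 without S0377 (adjusted p 0.0509 to 0.136), 2 without S0326, 7 without S0235, S0242 or S0355, and 8 without each of the other 5 libraries. Of the same 9 calls, 6 passed on the most abundant transcript alone.

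**Figure D3:**
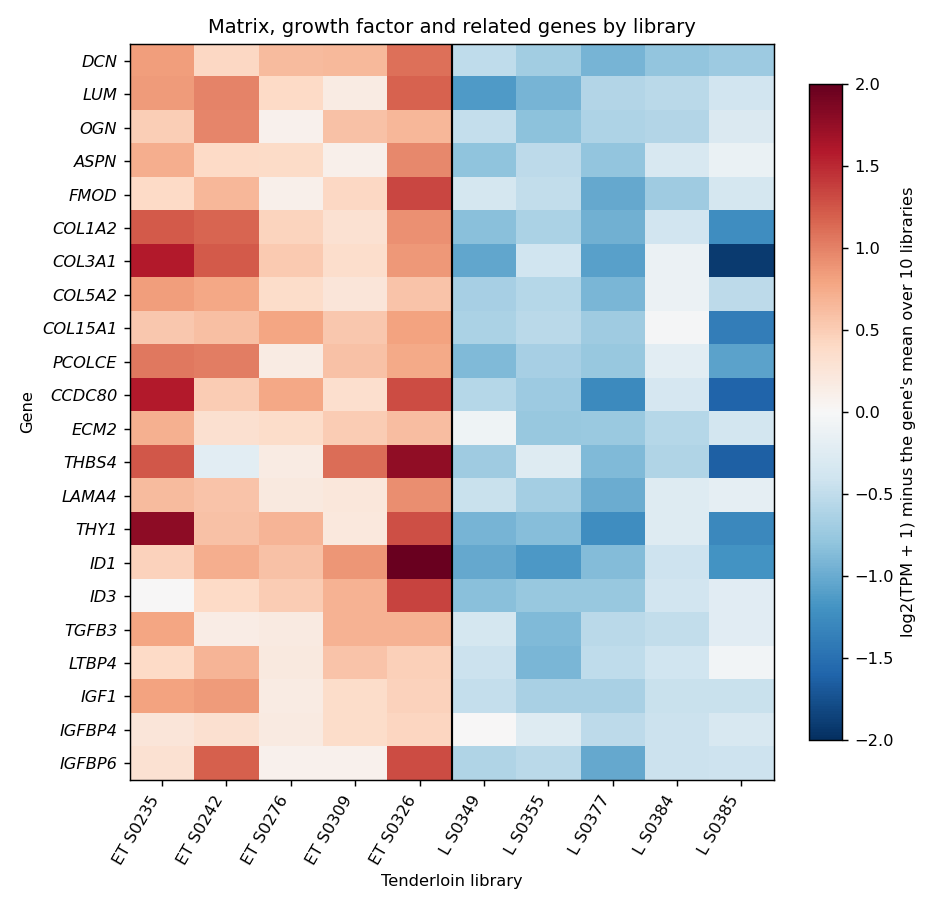
Level of 22 genes in each tenderloin library, as log2(TPM + 1) minus the mean of the gene over the 10 libraries, with ET libraries left of the line. The genes were drawn because they were called higher in ET, so the split between the types is a consequence of that choice; the picture shows how they vary between animals, such as COL3A1 at 141 TPM in S0235 and 59.7 TPM in S0309 within ET.

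Some markers of connective tissue cells rose as well. The summed TPM of 18 fibroblast and progenitor markers was 636 to 883 in ET and 412 to 553 in L. Of 16 tested, 3 rose (median 0.63), against 1.4% of all genes. THY1, a surface protein of fibroblasts, was at 32.8, 13.7, 14.5, 10.3 and 22.7 TPM in ET, against 4.11, 4.39, 3.12, 7.15 and 2.995 TPM in L. All ET libraries were above all L libraries (log2 fold change 1.83, SE 0.29, adjusted p = 0.0167). SFRP2, a secreted modulator of WNT signals, was at 1.62, 1.70, 1.94, 1.75 and 1.92 TPM in ET, against 0.299, 0.572, 0.0776, 0.454 and 1.34 TPM in L (log2 fold change 0.90, SE 0.19, adjusted p = 0.0404). The other call, IGFBP6, is described with the growth factors. The general fibroblast receptor PDGFRA was at 5.50 ± 1.76 TPM in ET and 3.47 ± 0.874 TPM in L (adjusted p = 0.204). In bulk tissue, more cells of a type and more RNA per cell cannot be told apart. Of 6 matched tendon markers 3 were tested and 2 rose, THBS4 and FMOD, and the summed TPM of the list was 68.7 to 169 in ET and 18.6 to 79.6 in L. MKX, COMP and CHAD stayed under a mean of 1 TPM in both types. The list held 9 tendon markers, and those without a match were not measured. Endothelial markers were at 325 to 499.6 TPM in ET and 184 to 515 in L, with none of 19 called (median 0.64). The 515 TPM were those of S0385, and the other L sums were 184 to 365.1 TPM. Without S0385, 7 of the 19 were called higher in ET, at a median of 0.81. Macrophage and myeloid markers were at 89.3 to 192 TPM in ET and 46.7 to 145 in L (0 of 14 called, median 0.42), and adipocyte markers at 220.4 to 315 in ET and 167 to 337 in L (0 of 7, median 0.28). ADIPOQ, the defining adipocyte gene, was at 0.134 to 3.64 TPM in ET and 0 to 0.361 TPM in L. Mural and smooth muscle markers were at 920.3 to 1125 TPM in ET and 972 to 1476 in L, with no call among 11 (median 0.36). Without S0385, 2 mural markers and 1 adipocyte marker were called higher, and without S0235 1 adipocyte marker. The part of these cell types in the matrix calls was not tested.

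Among 11 nerve, Schwann cell and junction genes, RET, the receptor for GDNF family ligands, gave the 1 call. RET was at 8.52, 5.48, 4.42, 3.85 and 7.49 TPM in ET, against 0.687, 1.06, 1.35, 1.67 and 1.12 TPM in L. The groups were far apart (log2 fold change 1.64, SE 0.21, adjusted p = 0.0112), and the call held without each library in turn. For THY1, IGFBP6, SFRP2, FMOD, THBS4 and RET together, 1 of 6 calls held without S0326 or S0377 (adjusted p up to 0.116 and 0.137), 2 without S0355 or S0384, 3 without S0235, S0242, S0276, S0309 or S0349 and 5 without S0385. With median-ratio scaling 2 of the 6 passed, and 2 passed on the most abundant transcript alone. Haemoglobin HBB was at 27.5, 69.1, 307, 55.4 and 197 TPM in ET, against 23.5, 28.2, 5.46, 21.7 and 74.9 TPM in L. The types overlapped (log2 fold change 1.95, SE 0.69, adjusted p = 0.154). B-cell, T-cell and lymph node lists summed to at most 45.7 TPM in any library, kidney markers to at most 2.84 TPM, and none of their tested members was called.

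**Figure D4:**
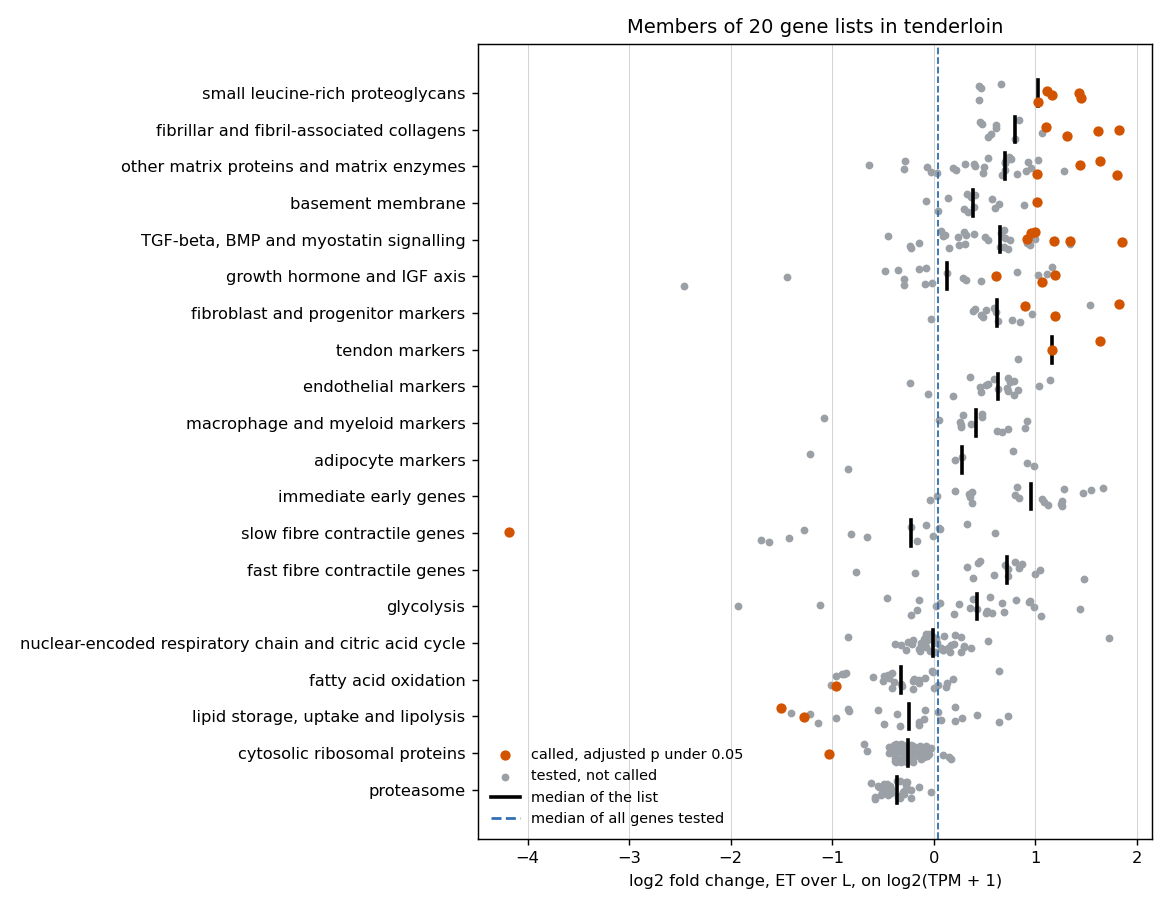
log2 fold change (ET over L, on log2(TPM + 1)) of each tested member of 20 gene lists, with called genes in orange, a black bar at the median of each list and a dashed line at the median of all genes tested, 0.05. Small leucine-rich proteoglycans have a median of 1.03 with 5 called, while the proteasome list has a median of -0.36 with none called.

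Among growth signals, 6 of 33 TGF-beta, BMP and myostatin genes rose and none fell (median 0.65), against 1.4% and 0.23% of all genes. The ligand TGFB3 was at 3.89, 2.14, 2.21, 3.59 and 3.61 TPM in ET, against 1.22, 0.536, 0.951, 1.01 and 1.43 TPM in L, low in all libraries but separated by type (log2 fold change 1.0001, SE 0.18, adjusted p = 0.0256). LTBP4, which holds latent TGF-beta in the matrix, was at 66.4, 81.0, 57.2, 74.4 and 69.7 TPM in ET, against 36.8, 25.97, 34.7, 37.7 and 48.3 TPM in L. It did not overlap between the types (log2 fold change 0.93, SE 0.17, adjusted p = 0.0264). ID1 was at 36.8, 44.5, 40.2, 49.5 and 107 TPM in ET, against 12.5, 11.4, 14.01, 19.6 and 10.98 TPM in L. S0326 was far above the other ET libraries, and all of these were above L (log2 fold change 1.85, SE 0.27, adjusted p = 0.0130). ID3 was at 53.3, 70.4, 75.7, 86.8 and 136 TPM in ET, against 29.2, 30.9, 30.9, 40.6 and 45.2 TPM in L. Here too S0326 was highest and the types did not overlap (log2 fold change 1.18, SE 0.23, adjusted p = 0.0316). The other 2 calls of the list were picked out after their values were seen. The ligand TGFB1 was at 13.3, 13.9, 15.2, 12.96 and 19.5 TPM in ET, against 5.71, 6.02, 5.15, 8.87 and 11.5 TPM in L (log2 fold change 0.96, SE 0.21, adjusted p = 0.0464). ID2 was at 9.33, 9.17, 9.84, 16.9 and 21.5 TPM in ET, against 3.73, 5.76, 2.23, 7.10 and 4.12 TPM in L (log2 fold change 1.35, SE 0.29, adjusted p = 0.0432). Without S0377 their adjusted p were 0.135 and 0.110. The receptors and SMAD proteins of the list gave no call, with TGFBR2 at a log2 fold change of 0.08 and SMAD4 at 0.09. The muscle growth inhibitor MSTN was at 4.58 ± 2.69 TPM in ET and 1.85 ± 1.64 TPM in L (adjusted p = 0.239).

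In the growth hormone and IGF axis, 3 of 21 genes rose, against 1.4% of all genes, at a list median of 0.13. IGF1, the growth factor, was at 3.36, 3.51, 1.80, 2.20 and 2.43 TPM in ET, against 0.782, 0.581, 0.594, 0.819 and 0.828 TPM in L. It was low in every library and separated between the types (log2 fold change 1.07, SE 0.16, adjusted p = 0.0150). The receptor IGF1R (0.47), the growth hormone receptor GHR (-0.29) and IGF2 (0.32) were not called. The binding protein IGFBP4 was at 15.04, 15.98, 14.3, 16.5 and 17.2 TPM in ET, against 12.6, 10.4, 8.45, 9.05 and 9.83 TPM in L (log2 fold change 0.61, SE 0.14, adjusted p = 0.0479). IGFBP6, a binding protein that prefers IGF2, was at 55.2, 103, 46.9, 47.3 and 111 TPM in ET, against 28.9, 30.2, 21.4, 32.6 and 33.1 TPM in L. IGFBP6 rose (log2 fold change 1.199, SE 0.26, adjusted p = 0.0464), but its 3 transcripts, all from L assemblies, did not move alike. The most abundant averaged 27.4 TPM in ET and 18.8 TPM in L but was 0 in S0276, and on it alone the log2 fold change was -0.21 (adjusted p = 0.932). The other 2 averaged 22.3 and 23.1 TPM in ET, against 9.42 and 0.991 TPM in L. IGFBP3 was at 2.97, 5.59, 2.48, 7.02 and 3.13 TPM in ET, against 6.89, 2.86, 23.3, 5.90 and 87.2 TPM in L. In L, S0377 and S0385 were far above the rest, and the gene was not called (log2 fold change -1.44, SE 0.69, adjusted p = 0.263). For TGFB3, LTBP4, ID1, ID3, IGF1, IGFBP4 and IGFBP6, 0 of 7 calls held without S0377 (adjusted p 0.0509 to 0.147), 2 without S0326 or S0355, 3 without S0242 or S0309, 4 without S0276, 5 without S0235 or S0384 and 6 without S0349. With median-ratio scaling 4 of the 7 passed, and 2 passed on the most abundant transcript alone.

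Secreted peptides gave 2 calls of 8 (median 0.50). NPPC, the C-type natriuretic peptide, was at 9.36, 2.62, 3.42, 2.22 and 7.43 TPM in ET, against 0.761, 0.457, 0.654, 0.640 and 0.351 TPM in L. It was under 1 TPM in every L library (log2 fold change 1.78, SE 0.30, adjusted p = 0.0182). PENK, the precursor of enkephalins, was at 4.54, 5.43, 3.21, 1.90 and 6.22 TPM in ET, against 0.976, 0.850, 0.571, 1.03 and 1.57 TPM in L. PENK rose without overlap (log2 fold change 1.34, SE 0.24, adjusted p = 0.0238). APLNR, the apelin receptor of endothelium, was the call among 17 hypoxia and angiogenesis genes, at 2.05 ± 0.713 TPM in ET and 0.586 ± 0.262 TPM in L (log2 fold change 0.93, SE 0.18, adjusted p = 0.0318). Of these 3 calls, 0 held without S0326 or S0377 (adjusted p 0.0612 to 0.0801 without S0377), 1 without S0242 and 2 without S0235, S0276, S0355 or S0384. Only 1 of the 3 passed on the most abundant transcript alone, a check that leaves the fold change of NPPC, with its single transcript, as it was.

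The other genes of largest increase were of mixed function. NREP, a protein first described in regenerating neurons, was at 16.2, 42.9, 24.5, 85.1 and 47.6 TPM in ET, against 16.5, 10.1, 6.41, 7.81 and 2.37 TPM in L. NREP rose (log2 fold change 2.18, SE 0.47, adjusted p = 0.0432), although S0235 in ET lay just under S0349 in L. VGLL2, a cofactor of TEAD factors in skeletal muscle, was at 249, 139, 129, 358 and 240.4 TPM in ET, against 78.7, 62.9, 57.0, 95.5 and 63.6 TPM in L. VGLL2 rose (log2 fold change 1.55, SE 0.27, adjusted p = 0.0212), and its transcripts differed. The one of 2032 bases averaged 137 TPM in ET and 20.1 in L, and the one of 3935 bases 80.3 TPM in ET and 49.2 in L. STBD1, which tethers glycogen to membranes, was at 114, 162.9, 183, 202 and 147 TPM in ET, against 75.4, 85.2, 29.1, 42.8 and 22.7 TPM in L. STBD1 rose (log2 fold change 1.80, SE 0.34, adjusted p = 0.0266) and was the 1 call of 23 glycogen genes (median 0.26). NTMT2, an N-terminal methyltransferase of muscle, was at 15.7, 9.35, 14.8, 12.02 and 14.7 TPM in ET, against 1.66, 7.82, 0.566, 3.93 and 0.769 TPM in L. S0242 was the lowest ET library and S0355 the highest L library, without overlap (log2 fold change 2.15, SE 0.41, adjusted p = 0.0278). ITGB8, an integrin chain that activates latent TGF-beta, was at 10.99 ± 4.30 TPM in ET and 2.27 ± 0.807 TPM in L (log2 fold change 1.80, SE 0.29, adjusted p = 0.0167). TPM4, a tropomyosin of the cytoskeleton, was at 60.2 ± 29.2 TPM in ET and 19.2 ± 7.39 TPM in L (log2 fold change 1.56, SE 0.30, adjusted p = 0.0284). RAET1E, named from a human ligand of an NK-cell receptor at 44.1% identity, was at 12.4 ± 2.23 TPM in ET and 3.20 ± 1.22 TPM in L (log2 fold change 1.71, SE 0.21, adjusted p = 0.0112). Of these 7 calls, 1 held without S0326 or S0377 (adjusted p 0.0404 to 0.117 without S0377), 3 without S0276, 4 without S0242, S0309 or S0355, 5 without S0384 and 6 without S0235. Only 3 of the 7 passed on the most abundant transcript alone.

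Genes of synthesis pathways gave few calls. PSPH, the last enzyme of serine synthesis, was at 3.47, 4.27, 4.51, 4.77 and 4.91 TPM in ET, against 1.06, 2.30, 0.669, 1.17 and 0.556 TPM in L. PSPH rose (log2 fold change 1.37, SE 0.20, adjusted p = 0.0130). ASNS, asparagine synthetase, was at 18.9, 32.1, 27.3, 15.6 and 27.4 TPM in ET, against 6.73, 11.2, 6.68, 16.01 and 5.18 TPM in L. ASNS rose (log2 fold change 1.37, SE 0.28, adjusted p = 0.0374), with the L library of S0384 just above the lowest ET library, S0309. Both belong to a list of 25 tested genes whose median was 0.09. CYP51A1, of cholesterol synthesis, was at 11.9, 8.78, 8.41, 10.3 and 14.9 TPM in ET, against 5.16, 5.03, 4.25, 5.08 and 4.58 TPM in L. CYP51A1 rose (log2 fold change 1.002, SE 0.16, adjusted p = 0.0167), the 1 call of 23 (median 0.37). Of these 3 calls, 0 held without S0377 (adjusted p 0.0509 to 0.110) and 2 without S0242, S0276, S0326, S0349 or S0355. Of the same 3, 2 passed on the most abundant transcript alone.

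Several lists had a median away from that of all genes with no call or 1. Of 31 proteasome genes none was called and 0 had a positive log2 fold change (median -0.36); PSMB4 was at 307 to 546 TPM in ET and 490.0 to 693 TPM in L. Cytosolic ribosomal proteins had a median of -0.25, with 3 of 72 above 0 and RPL5 as the only call. Atrophy and autophagy genes were at -0.58 (0 of 22), among them SQSTM1, the cargo receptor p62, at 614, 347, 521, 309.4 and 339.7 TPM in ET, against 456, 603, 785, 459 and 1113 TPM in L. Immediate early genes, which answer within minutes to stimuli that include handling, had a median of 0.96 (0 of 20). ATF3 among them was at 1102, 61.5, 534, 21.3 and 151 TPM in ET, against 6.03, 57.0, 65.1, 169 and 339.8 TPM in L. The types overlapped widely. Endothelial, antigen presentation (0.57, 0 of 24) and complement genes (0.53, 0 of 10) also lay above the median of all genes. Glycolysis was at 0.43 (0 of 25), with ALDOA at 8596 to 21469 TPM in ET and 4693 to 9467 TPM in L (adjusted p = 0.0923). The muscle regulatory factor MYF6 was at 87.8 to 355.3 TPM in ET and 41.1 to 121 TPM in L and MEF2C at 80.01 to 105.3 TPM in ET and 37.4 to 73.9 TPM in L (adjusted p = 0.0861 and 0.0695). Z-disc genes had a median of -0.14 with TCAP at 5305, 5914, 4019, 3850.5 and 3545 TPM in ET, against 9859.7, 6199.7, 9333, 7439 and 8011 TPM in L (adjusted p = 0.0592). Leaving out 1 library gave some of these lists calls. Without S0385, 3 antigen presentation genes and 1 complement gene were called higher, and 2 atrophy and autophagy genes and 1 glycolysis gene lower. Without S0235, 1 gene each was called higher for antigen presentation and complement and lower for atrophy and autophagy and for the Z-disc. Without S0384, 1 immediate early gene was called higher, and without S0349 1 antigen presentation gene.

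Loin, the other skeletal muscle of the series, was measured in the same 10 animals. The loin library of S0355 held adipocyte transcripts, with ADIPOQ at 1139 TPM against 0 to 4.20 TPM in the other 9. Its CKM was at 0.638 TPM against 17145 to 31866 TPM. Its profile correlated best with backfat (r = 0.9469, against 0.6035 with loin), so loin values are given without it. The loin library of S0235 (ET) correlated at 0.978 with tenderloin and 0.9751 with a loin mean that included S0355, and was kept. Each animal's log2 difference of tenderloin minus loin was compared between the types. With all animals, limma called 0 of 11092 genes (0%), the lowest adjusted p was 0.0568, and 2207 genes had an unadjusted p under 0.05. With no replicate block, that is without tying each tenderloin library to the loin library of its animal, 11 were higher and 1 was lower. Without S0355 it called 1040 of 10783 (9.64%), of which 966 were higher and 74 lower. The median of these differences over all genes was itself 0.27, or 0.38 with all animals, and the split between higher and lower depended on the scaling. At an unadjusted p under 0.05 with all animals, 2060 genes were higher and 147 lower on TPM as deposited. With median-ratio scaling 509 were higher and 668 lower, at a median of -0.01, and none was called. With that scaling and without S0355, an alternative chosen after the data were seen, 256 of 10780 genes were called (2.37%), 120 higher and 136 lower, at a median of 0.02. The 177 genes called in tenderloin were picked by their tenderloin values, which can widen their differences from loin. Of these 177, 25 were among the 1040 and 13 among the 256.

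Most of the 25 had a positive tenderloin minus loin difference on TPM as deposited, and only those named above are described here. Among the others, NFATC1, SCUBE3, ADAMTS1, RILPL1, RAP1GDS1, SYNE1, NTF3, SPRED2, BCL6B, PTPN12, SEMA4C, DUSP6, IER5L and GPR4 were positive. CBX5 and PHLDA3 were negative. Of these others, NFATC1, SCUBE3, ADAMTS1, RAP1GDS1, CBX5 and PHLDA3 also passed with median-ratio scaling. MYL6B was at 96.7 to 358 TPM in ET loin and 104 to 196 TPM in L loin, with a log2 fold change of 0.24 (SE 0.32, adjusted p = 0.577). The tenderloin difference minus the loin difference was -4.43 (SE 0.71, adjusted p = 0.00721), and with all animals the adjusted p was 0.103. CA3 went in opposite directions in the muscles, at 1280.1 to 2598 TPM in ET loin and 343 to 1000.5 TPM in L loin (log2 fold change 1.89, SE 0.32, adjusted p = 0.00312). Its difference was -4.10 (SE 0.29, adjusted p = 2.57e-05), and with all animals the adjusted p was 0.0628. ITGB8 rose in tenderloin and was at 0.23 in loin (difference 1.71, SE 0.31, adjusted p = 0.0115, and 0.193 with all animals). SLC25A22 was at 0.00 in loin (difference -1.30, SE 0.36, adjusted p = 0.0422) and PROSER2 at 0.50 (difference -1.67, SE 0.27, adjusted p = 0.00797). PSPH and AIFM2 were called the same way in both muscles without S0355, at 2.25 and -1.94 in loin, and differed in size, by -0.71 (SE 0.17, adjusted p = 0.0284) and 0.81 (SE 0.21, adjusted p = 0.0319). With all animals the adjusted p of these 4 were 0.461, 0.0879, 0.147 and 0.111. RFLNA was at 0.104 to 1.004 TPM in ET loin and 0.271 to 0.541 TPM in L loin, under the mean of 1 TPM needed for a test in loin without S0355, so its difference (-2.28, SE 0.43, adjusted p = 0.0123) is close to its tenderloin fold change alone. PRSS8, also under that limit in loin, was at 0.0341 to 0.422 TPM in ET loin and 0.625 to 2.74 TPM in L loin (difference -1.15, SE 0.24, adjusted p = 0.0191). Their adjusted p with all animals were 0.467 and 0.126. After median-ratio scaling without S0355, 7 of the 9 genes described passed, and AIFM2 (adjusted p = 0.136) and SLC25A22 (adjusted p = 0.0594) did not.

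None of the matrix genes described above was among the 25, which does not show that they changed equally in both muscles. Loin and tenderloin came from the same animals, so values in 1 muscle are no independent repeat of the other, and they are set side by side. DCN had a log2 fold change of 1.46 in tenderloin and 1.59 (SE 0.42, adjusted p = 0.0170) in loin, with a difference between the muscles of -0.13 (SE 0.40, adjusted p = 0.848). COL3A1 was at 1.82 and 2.86 (SE 0.55, adjusted p = 0.00493), and its difference was -0.90 (SE 0.36, adjusted p = 0.116). For IGF1 the values were 1.07 and 1.43 (SE 0.32, adjusted p = 0.00868), for ID1 1.85 and 1.61 (SE 0.27, adjusted p = 0.00288), for RET 1.64 and 1.85 (SE 0.39, adjusted p = 0.00696), and for PNPLA2 -1.51 and -1.58 (SE 0.22, adjusted p = 0.00163). PRSS36 was at -3.59 and -2.75 (SE 0.72, adjusted p = 0.0159), while PRSS43 was at -2.65 and -0.27 (SE 0.55, adjusted p = 0.734), with differences of -1.12 (SE 0.53, adjusted p = 0.172) and -2.18 (SE 0.65, adjusted p = 0.0513). With the library of S0355 kept in, loin DCN, COL3A1, IGF1, ID1 and PRSS36 did not pass (adjusted p 0.143 to 0.782).

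**Figure D5:**
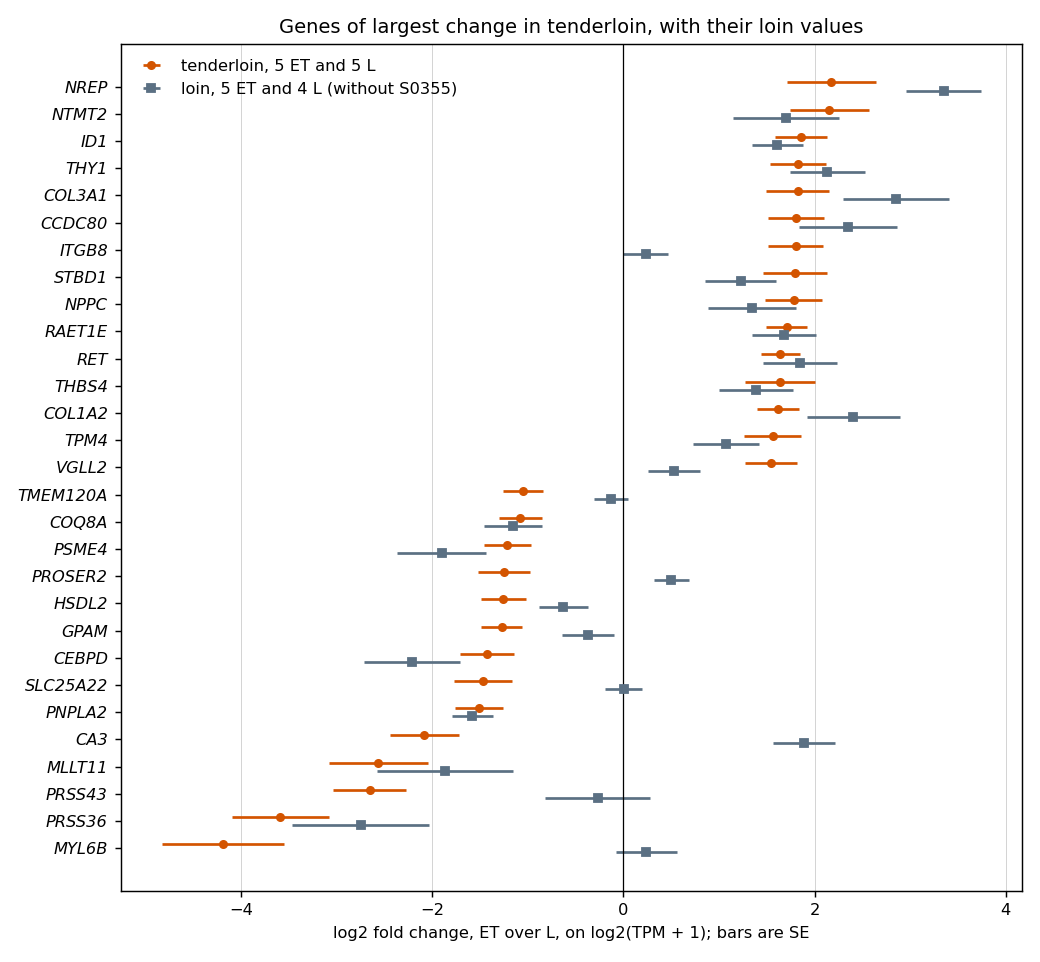
log2 fold change (ET over L, on log2(TPM + 1)) with its SE for genes of largest change in tenderloin, in tenderloin (orange circles, 5 ET and 5 L animals) and in loin (grey squares, 5 ET and 4 L animals, without S0355); the muscles share their animals. The genes were drawn because of their large tenderloin change, so a smaller change in loin can be in part a consequence of that choice. CA3 is at -2.08 in tenderloin and 1.89 in loin, and MYL6B at -4.19 and 0.24, whereas PNPLA2 is at -1.51 and -1.58.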

How the data were processed

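Per the labels, mRNA from 5 tissues of 10 Korean minipigs was sequenced from stranded libraries. The deposited values are TPM for 57085 transcripts joined from 20 assemblies (33986 transcripts from L and 23099 from ET assemblies). The submitters' processing notes name Trimmomatic 0.36, Salmon 1.10.0 and the build Sscrofa11.1, without roles. The deposited annotation gives each transcript its best Swiss-Prot BLASTX hit.

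TPM were summed per Swiss-Prot gene name over hits with an E value of at most 1e-10, leaving out repeat and non-animal proteins, which kept 32154 transcripts in 14413 genes at a median identity of 92.9%. Close paralogs may share or swap transcripts, and a gene resting on an assembly of 1 type may be counted less well in the other. Only genes averaging 1 TPM or more were tested on log2(TPM + 1) with limma 3.58.1 in R 4.3.3 (empirical Bayes with a trend, 5 ET against 5 L libraries, no covariate), with Benjamini-Hochberg adjusted p over all genes and calls at an adjusted p under 0.05. The scripts were tested on simulated data. Library summaries were set against each other by exact permutation tests, both sides counted, in Python 3.11.15 with NumPy 2.4.6. TPM keeps no read depth, so no counting intervals are given and the number of animals limits the precision.

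Tenderloin and loin were paired by animal. Deviations from the type means correlated at a median r of 0.448 (0.349 to 0.625) over 9 same-animal pairs and -0.147 over 32 pairs of different animals, S0355 being left out. Deviations within a type sum to 0, which pulls pairs of different animals below 0, so their value is no independent comparison. Genes named are the 15 called genes of largest fold change in each direction that average 5 TPM or more in the higher type, the 4 called members with the smallest p in each list, up to 2 of the most abundant members of a list with no call, and the myosin light and heavy chains, troponins and carbonic anhydrases. A further rule was for up to 10 genes called in both tenderloin and the difference from loin with all animals. It named none, because that fit called 0 genes. Any other gene given is a list member picked out after its values were seen, is marked so, or is listed among the 25 genes shared with the difference without S0355. The members and lists (51 lists, 1019 of 1085 symbols matched) were chosen with earlier results of these data known. Gene positions are from RefSeq annotation of Sscrofa11.1, matched by symbol for 168 of 177 called genes. Alternatives were other pseudocounts, filters, scaling, E value limits, 1 transcript per gene, entries kept apart by species, no trend, and leaving out each library.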

Additional observations from a re-analysis of the deposited data

Results flagged for a closer look

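Within ET tenderloin, 3 genes had a library far from the other 4. ID1 was at 107 TPM in S0326, against 36.8 to 49.5 TPM in the others. PROSER2 was at 8.49 TPM in S0242, against 2.68 to 3.59 TPM. TMEM120A was at 10.2 TPM in S0235, against 17.97 to 22.3 TPM. The share of TPM from L assemblies was 45.3% in S0242, against 43.04% to 43.6% in the other ET libraries. These were 4 of 122 groups of 5 libraries examined, and chance alone flags about 1 in 20.

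The difference between ET and L was itself different in tenderloin and loin for 8 genes that the naming rule gives and that were called in tenderloin, and for PRSS8, when S0355 was left out (limma, adjusted p under 0.05 over all genes). As tenderloin minus loin on the log2 scale, it was -4.43 (SE 0.71, adjusted p = 0.00721) for MYL6B and -4.10 (SE 0.29, adjusted p = 2.57e-05) for CA3. It was -2.28 (SE 0.43, adjusted p = 0.0123) for RFLNA and -1.15 (SE 0.24, adjusted p = 0.0191) for PRSS8, both of which were too low in loin to be tested there without S0355. It was -1.67 (SE 0.27, adjusted p = 0.00797) for PROSER2, -1.30 (SE 0.36, adjusted p = 0.0422) for SLC25A22, -0.71 (SE 0.17, adjusted p = 0.0284) for PSPH, 0.81 (SE 0.21, adjusted p = 0.0319) for AIFM2 and 1.71 (SE 0.31, adjusted p = 0.0115) for ITGB8. None of the 9 passed with all animals, S0355 included.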

How the results depend on the processing

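Without 1 library at a time, between 5 and 321 genes were called higher and between 0 and 53 lower in ET tenderloin. Under other settings the counts of higher and lower genes were 74 and 19 with a mean TPM of at least 5, 73 and 32 with median-ratio scaling, 34 and 4 with 1 transcript per gene, 97 and 20 with an E value of at most 1e-50, 98 and 19 with entries kept apart by species, 136 and 17 with no filter, 126 and 18 with a pseudocount of 5, 142 and 26 with a pseudocount of 0.1, and 156 and 29 with no trend, against 152 and 25. Of 56 named called genes, 56 kept their call with no trend, 54 with a pseudocount of 0.1, 43 with median-ratio scaling and 23 with 1 transcript per gene. Of the same 56, only 3 kept it without S0377, 12 without S0326, 30 without S0355 and 33 to 54 without each other library. One reversed: IGFBP6 was at -0.21 on its most abundant transcript. The cause was not tested.

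For the difference between tenderloin and loin, the counts were 0 and 0 with the animals paired, 11 and 1 with no replicate block, 3 and 1 with a pseudocount of 0.1, 6 and 1 with no filter, 120 and 136 with median-ratio scaling without S0355, and 0 to 966 higher and 0 to 74 lower without 1 animal at a time. Without 1 library, the ET minus L difference ranged from 350.4 to 422 genes with a TPM of at least 1, from -1.97 to 0.325 percentage points for the 10 most abundant genes, from 1.15 to 1.93 for unmatched transcripts, from -2.41 to -1.30 for L assemblies and from -19.5 to -8.06 for MYH7. With a TPM of at least 5 the difference was 348.6 genes (exact permutation test, adjusted p = 0.0794).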
